A study of Homo sapiens with 6 samples.

Results

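The subunits of the 5 complexes of oxidative phosphorylation were examined in DEV cells, an established line of nodular lymphocyte-predominant Hodgkin lymphoma. Members were chosen by gene symbol alone: probe sets with a single symbol beginning with NDUFA, NDUFB, NDUFC, NDUFS, NDUFV, UQCR, COX4, COX5, COX6, COX7, COX8 or ATP5, together with SDHA, SDHB, SDHC, SDHD and CYC1. Assembly factors of the NDUFAF series and genes annotated as pseudogenes were left out, and each gene was read from its probe set of highest mean over the 6 arrays. This gave 80 of the 18404 genes measured by a probe set with 1 symbol, of which 34 belonged to complex I, 3 to complex II, 8 to complex III, 17 to complex IV and 18 to complex V. SDHB, NDUFA4, NDUFA4L2 and UQCRFS1 were read by no probe set of this kind and are not analysed here.

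The study asked how these lymphoma cells respond to the blood cells that surround them in tissue. DEV cells were kept for 5 days alone (monoculture), with CD3+ T cells, or with CD14+ monocytes, the blood cells coming from healthy donors. Each of the 3 groups had 2 arrays. Cocultured DEV cells were separated at day 5 with beads against CD4, CD8 and CD14, a step described for the cocultures only, so bead handling and culture type cannot be told apart. All groups are the same single cell line, which per the study lacks surface MHC class I and class II. The labels do not say whether replicates were separate cultures, so p-values measure the spread between these samples, which may be technical.

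As background, complexes I and II pass electrons from NADH and succinate to coenzyme Q, complex III hands them on to cytochrome c, and complex IV transfers them to oxygen. Complexes I, III and IV pump protons across the inner mitochondrial membrane, and complex V, the ATP synthase, uses the return of the protons to make ATP. All but complex II combine subunits encoded in the nucleus with subunits encoded in mitochondrial DNA, so their construction needs both genomes. In B cells, respiration rises with activation and differs between the stages of the germinal centre reaction.

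The arrays differed in ways that touch these genes. Array medians over all 32321 probe sets lay between 5.64 and 5.73 on the log2 scale. Monoculture replicate 2 nevertheless lay above replicate 1 in 72 of the 80 members (90.0%, median difference 0.23), against 49.5% of all probe sets (median -0.002). Replicate 2 also lay above replicate 1 in 66 members with T cells and in 48 with monocytes. Of the B cell markers, 8 of 10 were measured, with sums between 65.1 and 68.4 log2 units per array. MS4A1, which encodes CD20, lay between 9.21 and 9.87, but PAX5, the B cell identity factor, was at 10.23 and 10.00 alone, 9.57 and 7.77 with T cells, and 8.26 and 7.43 with monocytes (-1.86 for both cocultures, limma adjusted p = 0.122). The 15 T cell markers summed to 83.7 and 83.6 in monoculture, 85.6 and 84.6 with T cells, and 83.5 and 83.2 with monocytes. Of these 15, 12 had a higher mean with T cells than alone and 11 with monocytes than alone. Over all probe sets, 43.8% were lower with T cells and 43.4% with monocytes. CD3D, a defining marker, was instead highest in monoculture (8.26 and 8.33). The 13 measured monocyte markers summed to 72.5 and 73.4 in monoculture, 73.3 and 74.5 with T cells, and 82.1 and 75.3 with monocytes. LYZ, the lysozyme gene of monocytes, was at 8.42 in monocyte coculture replicate 1 and between 4.98 and 5.09 on the other arrays. CD68, a lysosomal marker of monocytes, was high on both monocyte arrays (9.15 and 9.45, against 7.13 and 7.62 alone). Of the 13 markers, 11 had a higher mean with monocytes than alone, and 10 had a higher mean with T cells than alone. Leaving out monocyte coculture replicate 1 does not remove the CD68 difference. The part of these markers in the results was not tested. The main counts and the leading members of monocyte coculture are also given without that array. In a bulk sample, fewer cells of a type and less RNA per cell cannot be told apart.

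No subunit gene passed the test in any comparison. In limma, with Benjamini-Hochberg adjustment over all probe sets, 0 of 80 members had an adjusted p under 0.05 for both cocultures against monoculture (0.718% of all probe sets were called), for T cell coculture (0.0% called), for monocyte coculture (0.579% called) or for monocyte against T cell coculture (0.0% called). At an unadjusted p under 0.05, 11 members were lower in both cocultures (13.8%, against 10.6% of all probe sets) and 4 were higher (5.00%, against 8.22%). With T cells 5 were lower (6.25%, against 8.73%) and 3 higher (3.75%, against 6.70%). With monocytes 14 were lower (17.5%, against 9.88%) and 2 higher (2.5%, against 7.67%). Without monocyte coculture replicate 1, 7 were lower (against 7.94% of all probe sets) and 0 higher (against 7.37%). Between the cocultures, 5 were lower with monocytes (6.25%, against 4.03%) and 0 were higher (against 3.47%). All probe sets include 11775 without a symbol. Of the 18404 genes, each read like the members from its probe set of highest mean, 2495 were lower in both cocultures and 1439 higher. The share of members lower in both cocultures was near that of all genes. With T cells 2089 genes were lower and 1133 higher, with monocytes 2245 and 1413, and between the cocultures 707 and 650. The counts of members moved with single arrays. Leaving out 1 array at a time, the count for both cocultures was lowest without monoculture replicate 2 and highest without monoculture replicate 1. With monocytes it was lowest without monoculture replicate 2 or monocyte coculture replicate 1, and highest without monoculture replicate 1. With T cells and between the cocultures it was lowest without T cell coculture replicate 2. Each setting left 1 array in a group. The share of all probe sets at that p is not given for every setting, so these moves are not read as results about the members. Both coculture contrasts use the same 2 monoculture arrays, so their values are given side by side and were not counted as separate evidence.

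The complexes differed in their medians. For both cocultures against monoculture, the median log2 difference was -0.17 in complex I, where 28 of 34 genes had a lower mean, and -0.18 in complex V, where 14 of 18 did. It was 0.023 in complex II (1 of 3 lower), 0.020 in complex III (3 of 8 lower) and 0.049 in complex IV (2 of 17 lower), beside 0.028 over all probe sets, of which 42.5% were lower. When arrays were centred on their medians, all 5 values lay below 0 (-0.24 in complex I, -0.040 in II, -0.043 in III, -0.014 in IV and -0.24 in V, beside -0.035 over all probe sets), as they did without monoculture replicate 1 (-0.32, -0.093, -0.038, -0.011 and -0.25). Quantile normalization gave -0.035 in complex I (20 of 34 lower) and -0.093 in complex V. These medians are descriptions without a test.

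**Figure D1:**
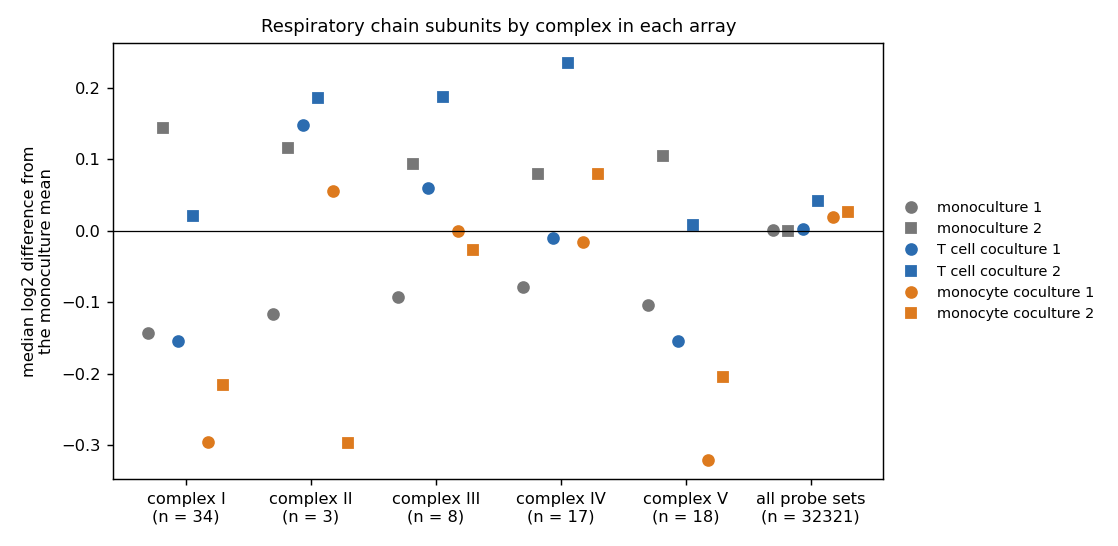
Median difference of each complex from the monoculture mean (log2, vertical axis) on each of the 6 arrays; circles are replicate 1 and squares replicate 2 of a group. In complexes I and V both monocyte coculture arrays lie below both monoculture arrays, while the monoculture arrays themselves lie 0.29 and 0.21 apart, and over all probe sets the 6 arrays lie together.

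With monocytes the complex I median was -0.28 (31 of 34 lower) and the complex V median -0.27 (16 of 18 lower), beside 0.028 over all probe sets. Without monocyte coculture replicate 1, the array with LYZ signal, they were -0.22 and -0.20. On single arrays, the complex I median stood at -0.14 and 0.14 from the monoculture mean in monoculture, at -0.15 and 0.021 with T cells, and at -0.30 and -0.22 with monocytes. Both monocyte arrays lay below both monoculture arrays, and 1 T cell array lay between them. The value moved with the monoculture array used: without monoculture replicate 2 the complex I median for both cocultures was 0.011 and that of complex V -0.048, and without replicate 1 they were -0.32 and -0.25. With monocytes, complex I stood at -0.10 without monoculture replicate 2, complex V at -0.11, and quantile normalization gave -0.081 and -0.14.

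With T cells the medians were -0.066 in complex I (24 of 34 lower) and -0.080 in complex V (13 of 18 lower), beside 0.12 in complex III (1 of 8 lower) and 0.078 in complex IV (3 of 17 lower). After quantile normalization the complex I value with T cells was 0.022, with 14 of 34 lower. Directly between the cocultures, 70 of 80 members had the lower mean with monocytes (median -0.14, against 0.002 over all probe sets), including 18 of 18 in complex V and 8 of 8 in complex III. Without monocyte coculture replicate 1, 55 of 80 did. Without T cell coculture replicate 2, 13 of 18 complex V genes and 4 of 8 complex III genes were lower.

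**Figure D2:**
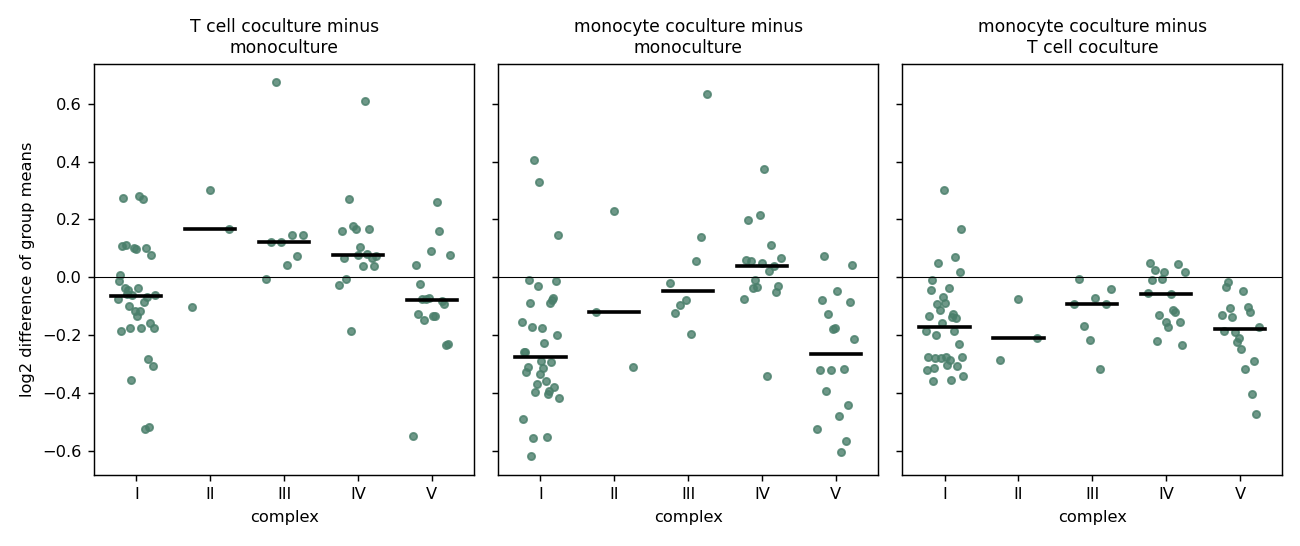
Log2 difference of group means (vertical axis) for each of the 80 subunit genes by complex, with the complex median as a bar, in the 3 pairwise comparisons. With monocytes most points of complexes I and V lie below 0 (31 of 34 and 16 of 18), whereas 10 of 17 points of complex IV lie above it. Without the complex IV isoforms preferred by other tissues, 6 of 11 do (median 0.020).

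Every coculture array lay below both monoculture arrays in 14 members (17.5%, against 13.8% of all probe sets) and above both in 5 (6.25%, against 15.2%). Of the 18404 genes, 3223 lay below and 2868 above, so the share of members below was near that of all genes. Both monocyte arrays lay below both monoculture arrays in 31 members (38.8%, against 22.4%), of which 17 belonged to complex I and 10 to complex V, and above both in 7 (8.75%, against 27.8%). Of the 18404 genes, both monocyte arrays lay below in 4983 and above in 5064. With monocytes the median log2 difference over the 80 members was -0.13, beside 0.028 over all probe sets. Without monocyte coculture replicate 1 it was -0.14, beside 0.026. The differences were small in size: 0 of 80 members differed 2-fold in any comparison.

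The promoters of the 2 lower and the 2 higher members of smallest p for both cocultures are shown to set genes of opposite direction side by side. They were picked by those values and not by their motifs. They come from the RefSeq table for GRCh38.p14, run 5′ to 3′ on the gene's strand from 250 bases before the start to 50 after it, and lie at chr17:75046920-75047219, minus strand (ATP5PD), chr2:201071751-201072050, plus strand (NDUFB3), chr11:63974370-63974669, plus strand (COX8A) and chr1:46303448-46303747, plus strand (UQCRH). Capitals mark matches to any of 4 motifs of factors known for respiration genes, searched on both strands: GCGCATGC (NRF1), CCGGAAG (ETS factors such as GABPA), AAGATGG (YY1) and CACGTG (E-box).
ATP5PD: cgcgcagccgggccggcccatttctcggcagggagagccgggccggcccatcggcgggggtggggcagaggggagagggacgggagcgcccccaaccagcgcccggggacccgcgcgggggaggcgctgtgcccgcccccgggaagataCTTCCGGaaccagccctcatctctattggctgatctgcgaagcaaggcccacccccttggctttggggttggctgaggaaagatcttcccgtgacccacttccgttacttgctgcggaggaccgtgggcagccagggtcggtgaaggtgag
NDUFB3: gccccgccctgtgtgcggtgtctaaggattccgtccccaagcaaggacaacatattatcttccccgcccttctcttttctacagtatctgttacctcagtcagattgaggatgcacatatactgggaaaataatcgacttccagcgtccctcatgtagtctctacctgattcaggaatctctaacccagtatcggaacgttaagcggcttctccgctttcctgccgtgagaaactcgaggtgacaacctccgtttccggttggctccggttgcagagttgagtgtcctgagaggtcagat
COX8A: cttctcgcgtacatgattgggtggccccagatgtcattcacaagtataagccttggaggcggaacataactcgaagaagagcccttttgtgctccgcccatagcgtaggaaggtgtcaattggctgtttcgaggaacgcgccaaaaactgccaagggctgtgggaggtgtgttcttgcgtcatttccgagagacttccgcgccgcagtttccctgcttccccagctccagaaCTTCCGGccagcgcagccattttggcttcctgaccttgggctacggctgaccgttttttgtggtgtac
UQCRH: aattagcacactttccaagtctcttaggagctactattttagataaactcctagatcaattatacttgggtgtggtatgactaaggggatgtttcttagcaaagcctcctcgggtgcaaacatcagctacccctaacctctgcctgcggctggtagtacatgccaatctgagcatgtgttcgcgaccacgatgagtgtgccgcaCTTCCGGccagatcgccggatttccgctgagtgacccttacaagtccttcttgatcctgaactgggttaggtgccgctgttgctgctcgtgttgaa
ATP5PD, COX8A and UQCRH each held 1 match, the ETS motif in its reverse orientation, beginning 101, 18 and 46 bases before the start. NDUFB3 held none of the 4. The motif was thus present in genes with lower and with higher means. Among the 67 members with a promoter in the table, 28.4% held the ETS motif (10.3% of all 35116 promoters), 22.4% the YY1 motif (5.84%), 17.9% the NRF1 motif (3.05%) and 10.4% the E-box (7.26%). A match of letters is a description and not a binding site.

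Complex I takes electrons from NADH through a core of flavin and iron-sulfur subunits, around which accessory subunits are built. NDUFS1, the largest iron-sulfur subunit, was at 8.39 and 8.37 in monoculture, 8.08 and 7.64 with T cells, and 7.65 and 7.88 with monocytes. All coculture arrays lay below both monoculture arrays, with a difference of -0.57 (± 0.14 SE, limma adjusted p = 0.106). Without T cell coculture replicate 1, a setting with 1 array in a group, it was -0.68.

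NDUFB3, an accessory subunit of the membrane arm, was at 7.77 and 7.61 alone, 7.42 and 7.26 with T cells, and 7.07 and 7.21 with monocytes. The groups did not overlap, and the differences were -0.35 (± 0.11) with T cells and -0.55 (± 0.11) with monocytes (limma adjusted p = 0.228 and 0.0830). Without monocyte coculture replicate 1 the latter was -0.48 (limma adjusted p = 0.236). NDUFV2, an iron-sulfur subunit of the NADH-binding module, was at 10.13 and 10.22, then 9.82 and 9.96, then 9.64 and 9.87. All coculture arrays were lower (-0.35 ± 0.10, limma adjusted p = 0.137), but the second, dimmer probe set of NDUFV2 gave -0.12 with overlapping groups. The number of the probe set used falls among those of chromosome 19 genes, while NDUFV2 lies on chromosome 18. The assignment of that signal to NDUFV2 is therefore uncertain. NDUFB6, another membrane arm subunit, differed by -0.35 (± 0.11, limma adjusted p = 0.157).

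For both cocultures the median was -0.12 over 6 core genes of complex I, of which 3 were lower. It was -0.17 over 28 accessory genes, of which 25 were lower. The core was not uniform. NDUFV1, which binds NADH and the flavin, was at 8.92 and 9.19 alone, 9.31 and 9.34 with T cells, and 9.04 and 8.89 with monocytes. The T cell arrays were the highest and the monocyte arrays overlapped with monoculture, and the cocultures differed by -0.36 (± 0.12, limma adjusted p = 0.586). NDUFS7, an iron-sulfur subunit near the coenzyme Q site, had the highest complex I difference for both cocultures (0.30 ± 0.18, limma adjusted p = 0.443).

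**Figure D3:**
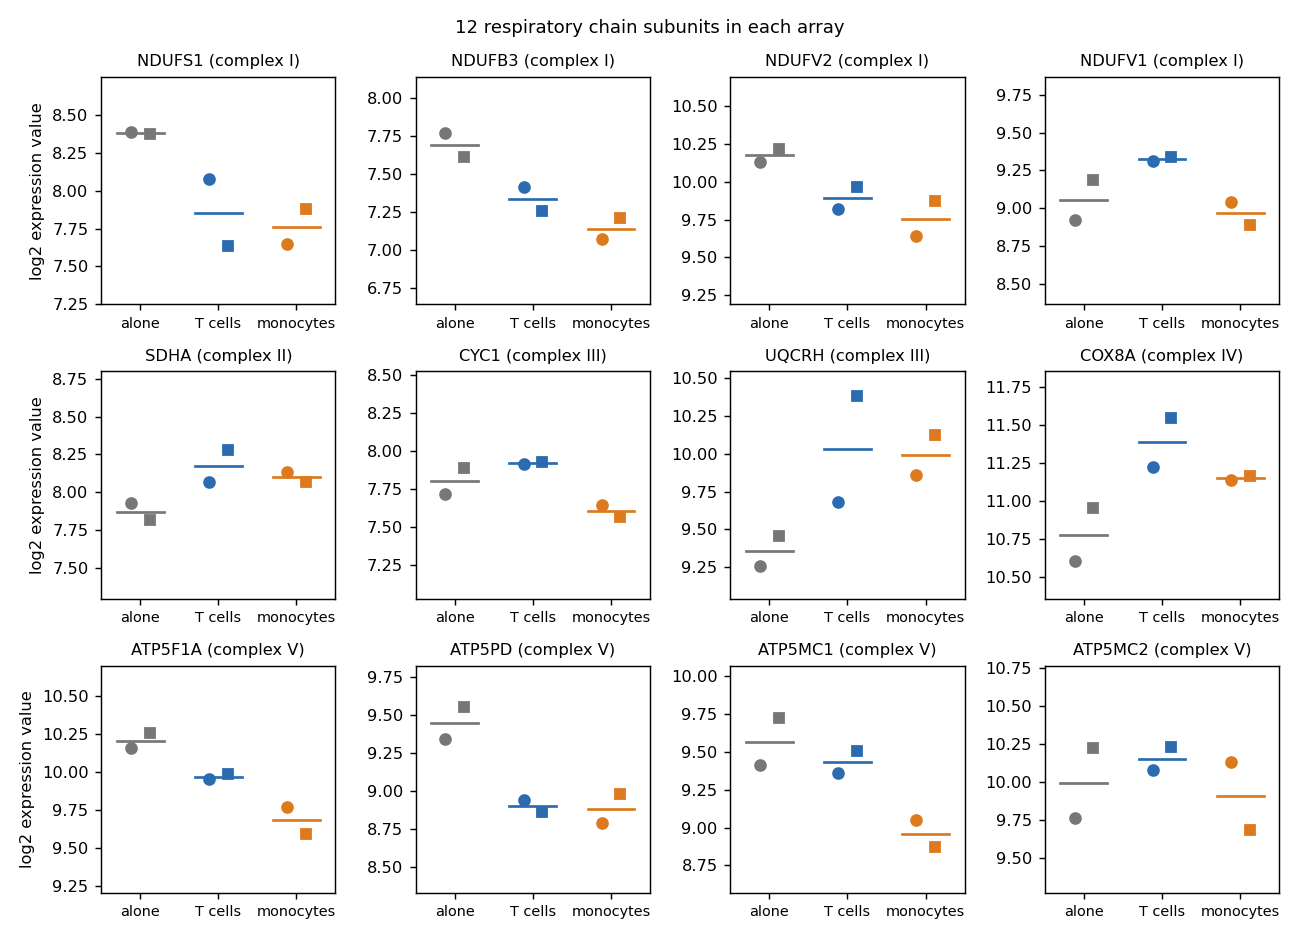
Log2 expression values (vertical axis, 1.5 units in every panel) of 12 subunit genes in DEV cells alone, with T cells and with monocytes; circles are replicate 1, squares replicate 2, and bars group means. NDUFS1, NDUFB3, NDUFV2, ATP5F1A and ATP5PD lie lower on all 4 coculture arrays, UQCRH, COX8A and SDHA lie higher, and ATP5MC1 lies lower with monocytes.

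Complex II oxidises succinate and is also an enzyme of the TCA cycle. SDHA, its flavin subunit, was at 7.93 and 7.81 alone, 8.07 and 8.28 with T cells, and 8.13 and 8.07 with monocytes. All coculture arrays lay above monoculture (0.27 ± 0.10, limma adjusted p = 0.212). The membrane anchors SDHC (-0.21 ± 0.19, limma adjusted p = 0.642) and SDHD (0.023 ± 0.13, limma adjusted p = 0.954) did not pass the test. Both T cell arrays of SDHD (9.69 and 9.73) lay above the other arrays, and its sign for both cocultures turned with median centring (-0.040). The second, dimmer probe set of SDHD gave 0.17 for both cocultures. With monocytes it gave 0.11, against -0.12 in the probe set used. The second, dimmer probe set of SDHC gave -0.15 for both cocultures. The number of the SDHD probe set used falls among those of chromosome 1 genes, while SDHD lies on chromosome 11. For SDHC, the probe set used falls among chromosome 17 genes and the second does not. The assignment of both signals is therefore uncertain.

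In complex III, UQCRH, the hinge subunit beside cytochrome c1, had the highest difference of all members. It was at 9.26 and 9.46 alone, 9.68 and 10.38 with T cells, and 9.86 and 10.13 with monocytes. All coculture arrays lay above both monoculture arrays (0.65 ± 0.21, limma adjusted p = 0.166), with the T cell replicates farther apart (SD 0.50) than those of the other groups. Without T cell coculture replicate 1, a setting with 1 array in a group, the difference was 0.83. UQCRH has a near-identical copy in the genome, so the assignment of its signal to 1 gene is uncertain.

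The core proteins UQCRC2 (0.14 ± 0.08) and UQCRC1 (0.10 ± 0.10) did not pass the test (limma adjusted p = 0.396 and 0.666). CYC1, which encodes cytochrome c1, was at 7.72 and 7.89 alone, 7.91 and 7.93 with T cells, and 7.64 and 7.57 with monocytes. The T cell arrays lay above both monoculture arrays and the monocyte arrays below both. The cocultures differed by -0.32 (± 0.10, limma adjusted p = 0.563), and the sign of CYC1 for both cocultures (-0.038) turned with quantile normalization (0.054).

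In complex IV, COX8A, a small structural subunit, was at 10.60 and 10.95 alone, 11.22 and 11.55 with T cells, and 11.14 and 11.17 with monocytes. All coculture arrays lay above monoculture, by 0.61 (± 0.16) with T cells and 0.38 (± 0.16) with monocytes (limma adjusted p = 0.172 and 0.304). COX7B was the complex IV member with the lowest difference (-0.26 ± 0.13, limma adjusted p = 0.340), and COX7C stood at 0.19 (± 0.15, limma adjusted p = 0.572).

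Several complex IV subunits have isoforms that other tissues prefer, such as muscle, lung or testis. COX4I2, COX6A2, COX6B2, COX7A1, COX7B2 and COX8C each varied little over the 6 arrays, as in COX7B2 (4.86 to 4.93) and COX6A2 (6.04 to 6.26). Their differences for both cocultures ran from -0.03 in COX6B2 to 0.19 in COX8C (± 0.08, limma adjusted p = 0.244). The widely expressed partners COX4I1 (0.01 ± 0.13), COX6A1 (0.16 ± 0.19), COX6B1 (0.07 ± 0.14) and COX7A2 (0.14 ± 0.18) overlapped between groups. The other partners did not: all coculture arrays lay above monoculture in COX8A and below it in COX7B. All coculture arrays of COX8C (5.05 to 5.15) also lay above monoculture (4.89 and 4.92). All values of COX8C, and of the other isoforms except COX6A2, lay below the array medians (5.64 to 5.73). Neither the isoforms nor their partners were called.

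Complex V joins a catalytic head to a ring of c subunits in the membrane through central and peripheral stalks. ATP5PD, subunit d of the peripheral stalk, had the smallest p of all members. It was at 9.34 and 9.55 alone, 8.94 and 8.86 with T cells, and 8.79 and 8.98 with monocytes. All coculture arrays lay below both monoculture arrays (-0.56 ± 0.10, limma adjusted p = 0.0655). The difference was -0.55 with T cells and -0.57 with monocytes (-0.47 without monocyte coculture replicate 1). The adjusted p crossed 0.05 only without T cell coculture replicate 1, a setting with 1 array in a group, and that is not read as a result.

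The 4 measured genes of the catalytic head and central stalk had a median of -0.31 for both cocultures and -0.46 with monocytes, and all 4 had lower means in each. ATP5F1A, the alpha subunit, was at 10.16 and 10.26 alone, 9.95 and 9.99 with T cells, and 9.77 and 9.59 with monocytes. Its 3 groups were separate and ordered, with the monocyte arrays lowest (-0.53 ± 0.10 against monoculture, limma adjusted p = 0.0764; -0.61 and 0.174 without monocyte coculture replicate 1). ATP5F1C, the gamma subunit of the central stalk, differed by -0.44 (± 0.13) with monocytes (limma adjusted p = 0.152; -0.45 and 0.318 without that array).

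The c subunit is encoded by 3 genes that give the same mature protein. ATP5MC1 was at 9.41 and 9.72 alone, 9.36 and 9.51 with T cells, and 9.05 and 8.87 with monocytes. The monocyte arrays lay below all others, with differences of -0.61 (± 0.14) from monoculture and -0.47 (± 0.14) from T cell coculture (limma adjusted p = 0.0999 and 0.538). Without monocyte coculture replicate 1 they were -0.70 and -0.56 (limma adjusted p = 0.204 and 0.631). ATP5MC2 (-0.09 ± 0.21) and ATP5MC3 (-0.18 ± 0.10) had smaller differences with monocytes (limma adjusted p = 0.890 and 0.456).

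A few genes that build and serve the chain were called, beside 0.718% called and 42.5% lower over all probe sets. COA3, an assembly factor of complex IV, fell by 0.68 in both cocultures (limma adjusted p = 0.0439), the single call among 48 assembly factors, of which 38 had lower means (median -0.24). Of 25 genes of mitochondrial genome upkeep and transcription, 18 had lower means (median -0.39) and 3 fell. SSBP1, which coats single-stranded mitochondrial DNA, was at 10.50 and 10.56 alone, 9.89 and 9.70 with T cells, and 9.75 and 9.72 with monocytes, and fell by 0.76 (limma adjusted p = 0.0439). TWNK, the helicase of mitochondrial DNA, fell by 0.66 (limma adjusted p = 0.0439), from 6.06 and 6.14 alone to between 5.37 and 5.48. TRMT10C, a subunit of the RNase P that processes mitochondrial transcripts, fell by 1.01 (limma adjusted p = 0.0448), from 7.34 and 7.59 to between 6.16 and 6.64. With monocytes alone, SSBP1 fell by 0.79 (limma adjusted p = 0.0471; 0.163 without monocyte coculture replicate 1, and 0.0264 to 0.261 over its 12 alternatives), the single call among these lists. The calls for both cocultures were kept under 4 (COA3), 6 (SSBP1), 7 (TWNK) and 6 (TRMT10C) of 12 alternatives. Without monoculture replicate 1 the adjusted p of each of the 4 genes was 0.241, and it was 0.123 and 0.147 without either monocyte array in turn, while the differences kept their sign. Without monoculture replicate 2 it was 0.290 for SSBP1 and 0.304 for COA3, TWNK and TRMT10C, and without T cell coculture replicate 2 it was 0.0552 for COA3 and 0.0520 for TWNK.

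The lists of coenzyme Q synthesis and cytochrome c (11 of 15 lower, median -0.31), the TCA cycle (13 of 17 lower, median -0.13) and regulators of respiration genes (9 of 16 lower, median -0.065) held 0 calls in limma. At an unadjusted p under 0.05, they had 5, 4 and 2 genes lower (10.6% of all probe sets, 2495 of 18404 genes). They had 0, 0 and 1 higher (8.22%, 1439 of 18404 genes). Without T cell coculture replicate 1, the adjusted p of the 6 genes named from these lists fell under 0.05. That setting left 1 array in a group. The share of all probe sets called in it is not given, so this is not read as a result about these genes. PDSS1 was called under 3 of its 12 alternatives, that setting among them. PDSS1, which makes the tail of coenzyme Q, differed by -0.61 and CYCS, cytochrome c, by -0.45 (limma adjusted p = 0.0531 and 0.0976). DLD, a subunit shared by 2-oxoacid dehydrogenases, differed by -0.82 and IDH3A, of isocitrate dehydrogenase, by -0.65 (limma adjusted p = 0.123 and 0.124). The coactivators of the PGC-1 family stood apart from each other. PPRC1 was at 7.45 and 7.46 alone and between 6.52 and 7.04 in coculture (-0.64, limma adjusted p = 0.0983), whereas PPARGC1A was at 5.51 and 5.90 alone, 6.05 and 7.03 with T cells, and 7.01 and 7.40 with monocytes (1.17, limma adjusted p = 0.106). None of the 13 subunits encoded in mitochondrial DNA was measured by a probe set with a single symbol here.

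**Figure D4:**
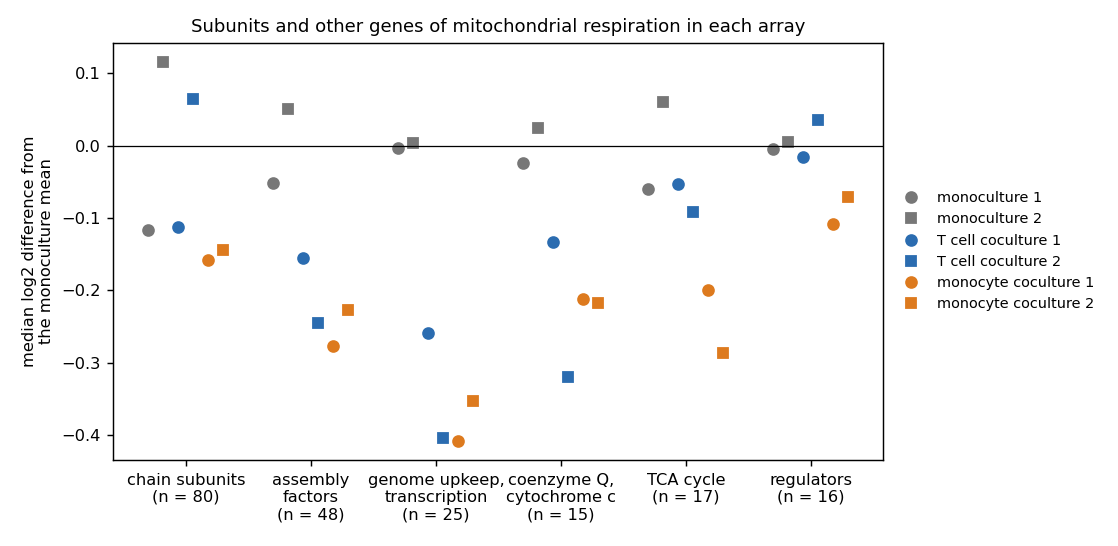
Median difference from the monoculture mean (log2, vertical axis) of the 80 subunit genes and of 5 lists of other respiration genes on each of the 6 arrays; circles are replicate 1 and squares replicate 2. All 4 coculture arrays lie below both monoculture arrays for assembly factors, genome upkeep and transcription, and coenzyme Q and cytochrome c, but not for the subunits, where both T cell coculture arrays lie between the monoculture arrays.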

How the data were processed

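RNA of 6 DEV samples (40 ng each) was amplified, biotin-labelled and hybridised to Affymetrix Human Gene 1.0 ST arrays. The authors deposited 1 normalized log2 value per probe set and array; how they were summarised and normalized is not given in the sources used here. Values were used as deposited, and the number of arrays limits their precision. Of 32321 probe sets, 19158 carried 1 symbol in the platform annotation, 1388 several and 11775 none. The 80 members came from 86 probe sets, after leaving out 8 NDUFAF, 3 noncoding or pseudogene and 9 probe sets with several symbols. All 80 were found in RefSeq.

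One mean per group was fitted to all probe sets with lmFit and eBayes in limma 3.58.1 (R 4.3.3; 3 residual and 3.08 prior degrees of freedom), with Benjamini-Hochberg adjustment over the 32321 probe sets and a threshold of 0.05. The fit was tested on simulated data. Errors are standard errors of the fit. Named members are the 4 of smallest p per complex for both cocultures, the 4 of smallest p in each other comparison, all of complex II, isoform pairs and c subunit genes, and from each other list the 2 of smallest p. NDUFS7, TRMT10C and the marker genes were named after their values were seen. Members and lists were chosen with earlier results of these data known. Alternatives were quantile normalization, median centring, leaving out the dimmest 40% of probe sets, each array in turn, a replicate block, a variance prior by mean expression, and the mean of all probe sets of a gene.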

Additional observations from a re-analysis of the deposited data

Results flagged for a closer look

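CYC1, which encodes cytochrome c1 of complex III, differed between the cocultures by -0.32 on the log2 scale (monocyte minus T cell coculture). It was listed here because both T cell arrays lay above, and both monocyte arrays below, the 2 monoculture arrays. The limma test of the difference between the cocultures did not pass the threshold (adjusted p = 0.563).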

How the results depend on the processing

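The count of 0 called members held in 46 of 48 recalculations. Leaving out 1 array at a time gave 0 to 3 called members for both cocultures and 0 to 1 for T cell coculture. The highest counts came without T cell coculture replicate 1 (ATP5PD, NDUFS1 and UQCRH for both cocultures, and UQCRH for T cell coculture). That setting left 1 array in a group. The share of all probe sets called in it is not given, so these counts are not read as results about the members. Quantile normalization gave medians of 0.12 in complex III for both cocultures and, with monocytes, -0.081 in complex I, 0.079 in complex II, 0.099 in complex III and -0.14 in complex V.

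Leaving out 1 array at a time, the medians for both cocultures ran from -0.32 to 0.011 in complex I, -0.040 to 0.16 in complex III and -0.25 to -0.048 in complex V. With T cells they ran from -0.25 to 0.12 in complex I and -0.010 to 0.23 in complex IV. With monocytes they ran from -0.42 to -0.10 in complex I, -0.30 to 0.055 in complex II, -0.097 to 0.10 in complex III and -0.34 to -0.11 in complex V. Between the cocultures they ran from -0.46 to -0.039 in complex II, -0.27 to 0.0045 in complex III, -0.24 to 0.024 in complex IV and -0.27 to -0.051 in complex V. In all, 181 of 204 recalculated medians moved by less than the spread between arrays. Some of them could not move, because the array left out belonged to neither group compared. The spread was taken from the same replicate gaps that leaving out an array shifts, so this count does not measure stability. The cause of the shifts between settings was not tested.

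For both cocultures SDHD turned to -0.040 with median centring, and leaving out 1 array gave -0.093 to 0.14, with the sign turned when monoculture replicate 1 or monocyte coculture replicate 1 was dropped. CYC1 turned to 0.054 with quantile normalization and ran from -0.12 to 0.047 with 1 array left out, turning without monoculture replicate 2. The deviations of same-numbered arrays correlated at 0.0268, -0.152 and 0.26 (the last between the cocultures) over all probe sets, so not every pair of groups deviated together and the numbers were not taken to pair the samples. With the replicate number as a block, 0 members were called in each comparison. Members at an unadjusted p under 0.05 went from 15 to 22 for both cocultures and 8 to 9 with T cells. They went from 16 to 26 with monocytes and 5 to 11 between the cocultures. The share of all probe sets at that p under the block is not given, so the rise is not read as a result about the members.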
